A study of Mus musculus with 6 samples.

Results

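LE is a methanolic leaf extract of Abeliophyllum distichum, a shrub of the olive family, and the comparison described here is that of osteoclast precursors given RANKL and LE (R+LE) with precursors given RANKL alone (+R). It asks which functions of RANKL-treated cells the extract lowered and which it raised. Levels are in RPKM, that is, reads scaled to transcript length and to the mapped reads of the library. All genes whose mean over the 2 +R and the 2 R+LE libraries reached 0.5 RPKM were taken, which were 11509 of the 24940 genes in the deposited table. The cells were mouse bone marrow-derived macrophages (BMMs), that is, marrow cells grown with M-CSF. All cultures held M-CSF (30 ng/mL) throughout the 3 days. Those of +R and R+LE also held RANKL (100 ng/mL), and only those of R+LE held LE (10 μg/mL). Another pair of libraries, from cells with M-CSF and no RANKL (-R), entered the fit for its spread and is given as a reference level. The sample labels name C57BL/6 mice of 6 to 8 weeks and cultures in 48-well plates, whereas the methods of the study name ICR mice and plates of another format. Nothing states whether the 2 libraries of a condition came from separate mice or cultures, so the p-values measure the spread between these libraries, which may be technical.

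Osteoclasts are giant cells that form when precursors of the macrophage lineage fuse, and they are the cells that dissolve bone. RANKL binds its receptor RANK on the precursor, the adaptor TRAF6 passes the signal to NF-κB, AP-1 and calcium pathways, and the transcription factor NFATc1 then switches on the genes for fusion, acid secretion and collagen breakdown. Osteoclast formation also goes with a build-up of mitochondria and a rise of reactive oxygen species, which the transcription factor Nrf2 counters by raising the enzymes that make and use glutathione and NADPH.

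The recovered depth was between 30452307 and 31569411 mapped reads in the 4 libraries, of which 74.2% to 80.7% lay on genes. Replicates correlated with r = 0.991 in +R and 0.988 in R+LE over log2 values across genes, against 0.971 to 0.976 between +R and R+LE libraries. R+LE replicate 2 had the lowest share of reads on genes, at 74.2%, and the highest share of gene reads on the 45S ribosomal RNA entry, at 13.5% against 10.9% to 11.2% in the other 3 libraries. Its values of short transcripts were also lower, and the results that this library moves are given with and without it. The labelled cell type was checked against 8 macrophage markers, whose summed level was 2692 to 3455 RPKM in +R and 3764 to 4206 RPKM in R+LE, most of it from Lyz2. The 8 osteoclast markers summed to 1866 and 2123 RPKM in +R and to 329 and 380 RPKM in R+LE, against 43.2 and 44.8 RPKM in -R. Markers of T and NK cells and of B cells summed to at most 0.452 RPKM in any of the 4 libraries, and stromal and osteoblast markers to 12 and 16.1 RPKM in +R and 9.58 and 10.9 RPKM in R+LE. In a bulk culture, fewer cells of a type and less RNA of a gene per cell cannot be told apart.

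Adding LE moved a small share of the genes by 2-fold or more, in both directions. Of the 11509 genes tested, 171 were called higher in R+LE (1.49%) and 207 were called lower (1.8%), 378 in all (3.28%). A call needed an adjusted p-value below 0.05 in limma and a fold change of at least 2 on the log2(RPKM + 0.5) scale. Without the size limit, 600 genes were higher (5.21%) and 794 were lower (6.9%). A change of 4-fold or more was reached by 14 of the genes called higher and 25 of those called lower. The median log2 fold change over all genes was -0.05. The 2 R+LE values lay outside the 2 +R values in 377 of the 378 called genes, and also in 49% of all genes tested. Of the called genes, 32 sat on transcripts under 200 nt, and they are not named here. For 1 gene with 2 values on each side, the smallest two-sided p of an exact permutation test is 0.333, so the calls rest on the spread that limma shares across genes. In the text below, a log2 fold change is R+LE minus +R and carries the SE of the limma fit, p-values are adjusted over all genes tested, and levels are RPKM. Counts in the lists of genes by function are to be read beside the 3.28% of all genes that were called. Lists with 1 or 2 called members can lie near that share, as did cholesterol synthesis and uptake (4.17%) and Toll-like receptors and adaptors (5%).

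**Figure D1:**
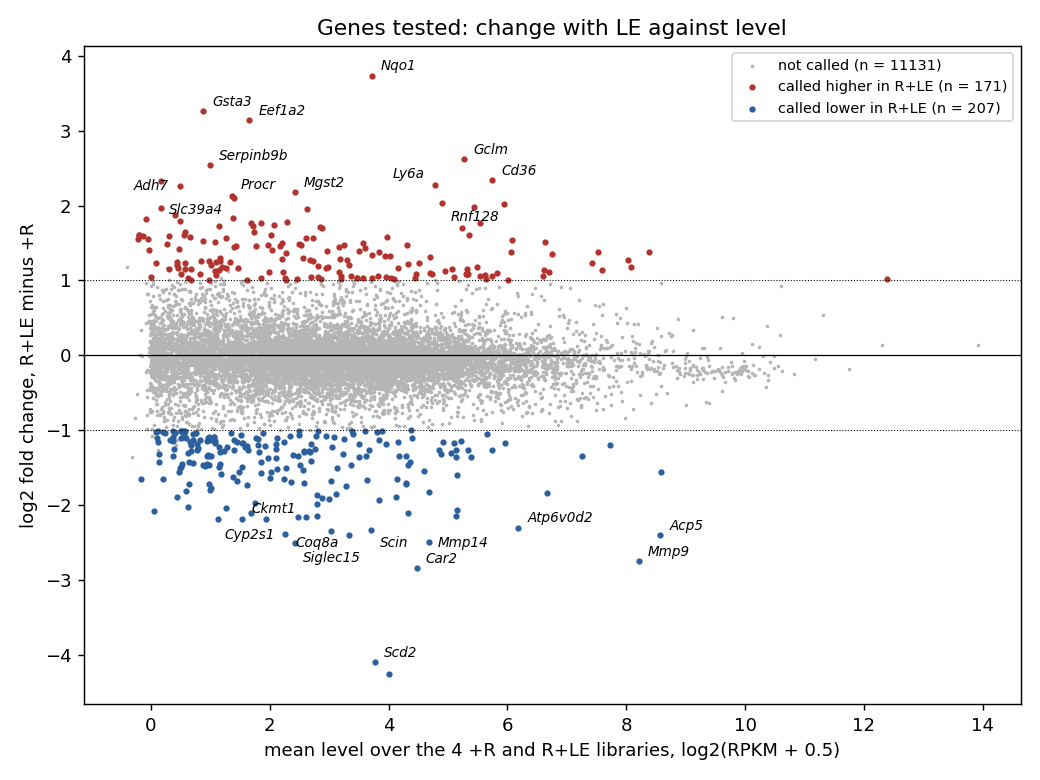
Change with LE against level for the 11509 genes tested: the horizontal axis is the mean log2(RPKM + 0.5) over the 4 +R and R+LE libraries, the vertical axis the log2 fold change of R+LE minus +R, and dotted lines mark a 2-fold change. Red marks the 171 genes called higher and blue the 207 called lower, and of the 23 genes named, which are among the largest rises and falls on transcripts of at least 200 nt, Scd2 at -4.10 and Nqo1 at 3.73 lie furthest from 0.

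The genes that fell most with LE were the lipid enzyme Scd2 and then genes of bone resorption. Scd2, a desaturase that puts the double bond into stearic acid, stood at 53.5 and 58.8 RPKM in +R and 2.54 and 3.09 RPKM in R+LE (log2 fold change -4.10 ± 0.14, adjusted p = 1.15e-10). Its R+LE values also lay below the 5.62 and 5.82 RPKM of cells without RANKL. The Scd2 transcript contains a small RNA entry, Mir5114, which falls with it and is not counted as a second finding. Car2, the carbonic anhydrase that makes the protons for bone dissolution, read 60.9 and 57 RPKM in +R and 9.15 and 6.59 RPKM in R+LE (log2 fold change -2.84 ± 0.16, adjusted p = 2.78e-08). Mmp9, a gelatinase, was among the most abundant of all these genes, with 782 and 758 RPKM in +R and 111 and 117 RPKM in R+LE (log2 fold change -2.75 ± 0.14, adjusted p = 1.1e-08). The membrane-bound protease Mmp14 read 60.9 and 59.3 RPKM in +R and 9.61 and 11 RPKM in R+LE (log2 fold change -2.49 ± 0.15, adjusted p = 6.52e-08). The rule that named these 4 genes required both R+LE libraries to lie below both +R libraries. The gap was many times the distance between replicates in each of the 4 genes.

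Acp5, the tartrate-resistant acid phosphatase by which osteoclasts are stained, stood at 964 and 795 RPKM in +R and 185 and 147 RPKM in R+LE (log2 fold change -2.41 ± 0.17, adjusted p = 3.15e-07). Part of its exon sequence, 137 bp, lies under a non-coding transcript of the opposite strand, which the unstranded counting does not separate. Siglec15, a sialic acid receptor that signals through DAP12, read 11.2 and 13.7 RPKM in +R and 1.49 and 2.06 RPKM in R+LE (log2 fold change -2.52 ± 0.18, adjusted p = 4.07e-07), and was at 0 in both -R libraries. Atp6v0d2, the osteoclast subunit of the proton pump, read 176 and 147 RPKM in +R and 36.5 and 28.5 RPKM in R+LE (log2 fold change -2.30 ± 0.16, adjusted p = 3.13e-07). Other large falls were in genes of other kinds. Scin, an actin-severing protein, had a log2 fold change of -2.34, the cytochrome P450 Cyp2s1 -2.39, the mitochondrial creatine kinase Ckmt1 -2.19 and Coq8a, which takes part in making coenzyme Q, -2.40. Coq8a and Cyp2s1 share 366 bp and 260 bp of exon with genes of the opposite strand.

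The largest rise was in Nqo1, the quinone reductase that serves as a textbook readout of Nrf2. It stood at 3.84 and 2.51 RPKM in +R and 53 and 42.7 RPKM in R+LE (log2 fold change 3.73 ± 0.18, adjusted p = 4.03e-09), and at 3.26 and 3.87 RPKM without RANKL, so that both R+LE libraries lay above the other 4 libraries. Gclm, the modifier subunit of the enzyme that limits glutathione synthesis, read 14.9 and 15.2 RPKM in +R and 111 and 82 RPKM in R+LE (log2 fold change 2.62 ± 0.16, adjusted p = 7.04e-08). Gsta3, a glutathione S-transferase, went from 0.143 and 0.048 RPKM in +R to 6.12 and 4.4 RPKM in R+LE (adjusted p = 8.14e-08). Its +R values stand for 6 and 2 reads, so no fold is given for it. Mgst2, a microsomal glutathione transferase, read 2.25 and 1.81 RPKM in +R and 13.3 and 8.89 RPKM in R+LE (log2 fold change 2.18 ± 0.19, adjusted p = 1.91e-06). Adh7, an alcohol dehydrogenase, read 0.158 and 0.126 RPKM in +R and 2.83 and 2.32 RPKM in R+LE (log2 fold change 2.26 ± 0.23, adjusted p = 7.92e-06). Its +R values lay below the 0.5 RPKM limit, and its fold depends on the pseudocount. The log2 fold change of Adh7 was 3.46 with a pseudocount of 0.1 RPKM and 1.64 with 1 RPKM. As with Nqo1, the levels of Mgst2 and Adh7 in -R, at 1.14 and 1.4 and 0.165 and 0.111 RPKM, were close to those in +R.

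Most of the other large rises were in genes whose levels in -R lay above those in +R. Cd36, the fatty acid and oxidised lipid receptor of macrophages, read 25.5 and 21.4 RPKM in +R and 139.9 and 103 RPKM in R+LE (log2 fold change 2.34 ± 0.18, adjusted p = 5.7e-07), with 468 and 541 RPKM in -R. Eef1a2, a translation elongation factor, read 0.544 and 0.576 RPKM in +R and 8.74 and 8.94 RPKM in R+LE (log2 fold change 3.14 ± 0.14, adjusted p = 2.22e-09). Ly6a, the surface antigen Sca-1, read 13.3 and 10.9 RPKM in +R and 65.1 and 55.3 RPKM in R+LE (log2 fold change 2.27 ± 0.15, adjusted p = 2e-07). Rnf128, a ubiquitin ligase, had a log2 fold change of 2.04, the protein C receptor Procr 2.13 and the protease inhibitor Serpinb9b 2.54. Slc39a4, a zinc importer, read 0.722 and 0.81 RPKM in +R and 5.73 and 4.26 RPKM in R+LE (log2 fold change 2.11 ± 0.19, adjusted p = 3.29e-06) and 0.692 and 0.571 RPKM in -R, and so had no higher level there. The -R levels are shown beside these values as a reference only, because the comparison of +R with -R uses the same +R libraries.

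**Figure D2:**
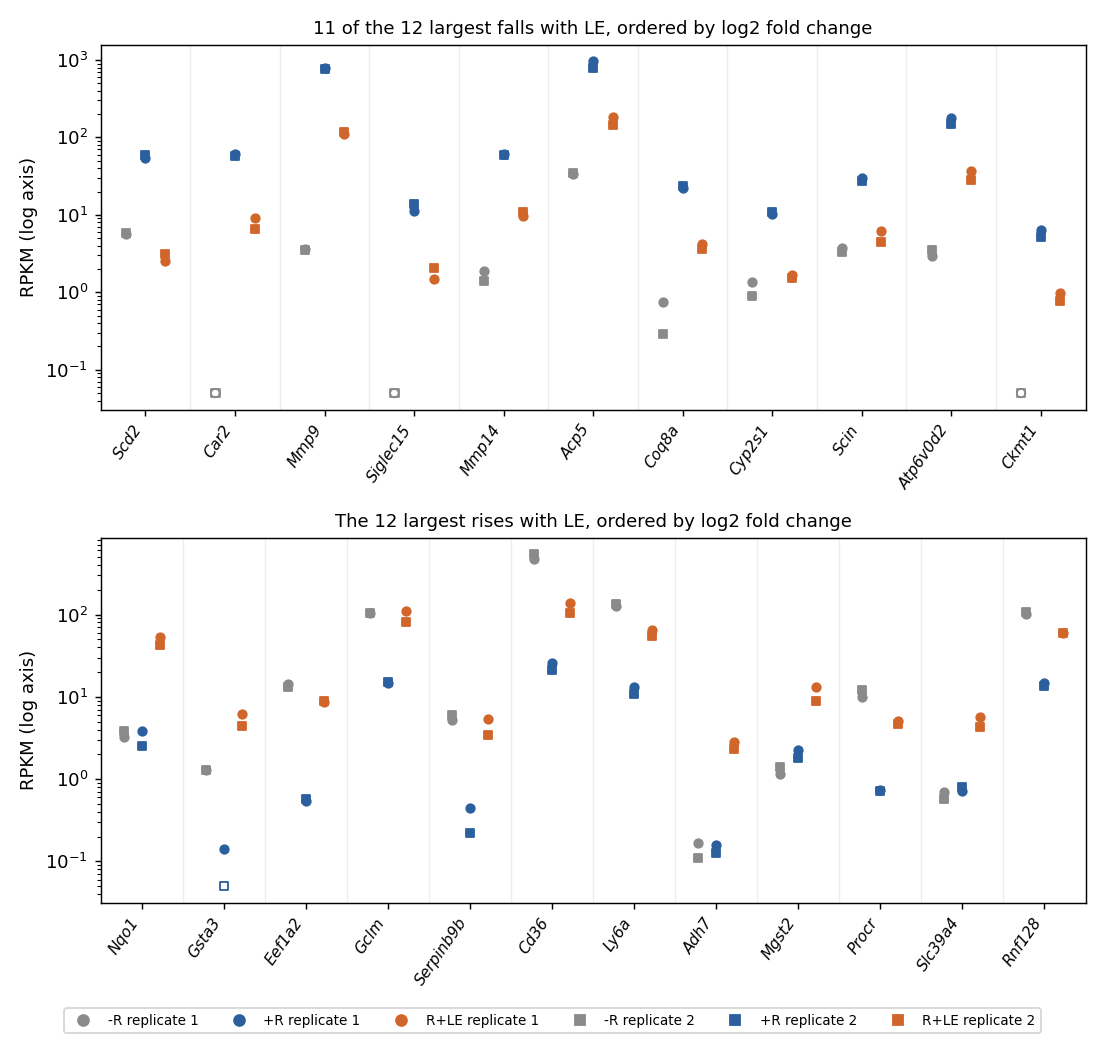
RPKM on a log axis in each of the 6 libraries for 11 of the 12 largest falls (top) and the 12 largest rises (bottom), with circles for replicate 1, squares for replicate 2, and open symbols drawn at 0.05 for lower values. All 23 genes were chosen on the condition that the 2 orange R+LE symbols lie apart from the 2 blue +R symbols. Among the rises Nqo1, Adh7, Mgst2 and Slc39a4 have grey -R symbols close to the blue ones.

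Bone resorption was the function with the highest share of members called lower. Of 16 genes for resorption enzymes and acid transport, 11 were called lower and 0 higher, against 1.8% of all genes called lower, and the median log2 fold change was -1.59. Besides the genes above, cathepsin K (Ctsk), which digests collagen, read 83.3 and 64.3 RPKM in +R and 18.2 and 14.3 RPKM in R+LE (log2 fold change -2.15 ± 0.16, adjusted p = 5.1e-07). The calcitonin receptor gene Calcr read 6.54 and 5.82 RPKM in +R and 1.33 and 0.799 RPKM in R+LE (log2 fold change -2.11 ± 0.21, adjusted p = 6.39e-06). The kinase Src, needed for the ruffled border, read 37.2 and 32.9 RPKM in +R and 9.79 and 10.8 RPKM in R+LE (log2 fold change -1.72 ± 0.14, adjusted p = 9.2e-07). The integrin chain Itgb3, which holds the osteoclast to bone, read 38.1 and 28.4 RPKM in +R and 12.9 and 10.3 RPKM in R+LE (log2 fold change -1.47 ± 0.16, adjusted p = 2.21e-05). The bicarbonate exchanger Slc4a2 and the chloride channel Clcn7 had log2 fold changes of -1.26 and -1.11. The 5 members short of a call were also below +R, with Tcirg1, the osteoclast a3 subunit of the proton pump, at -0.88 (adjusted p = 0.00173) and Ostm1, the partner of Clcn7, at -0.35 (adjusted p = 0.168). Slc9b2, a sodium-proton exchanger that was chosen after its values were seen, read 74.6 and 69.8 RPKM in +R and 19.4 and 14.6 RPKM in R+LE (log2 fold change -2.07 ± 0.15, adjusted p = 4.07e-07). Ctsk and Mmp9 in R+LE were still above their levels without RANKL, which were 0.216 and 0.182 RPKM for Ctsk and 3.66 and 3.47 RPKM for Mmp9.

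The vacuolar proton pump acidifies lysosomes in all cells and the resorption pit in osteoclasts. Its subunits other than Atp6v0d2 and Tcirg1 moved by smaller amounts than Atp6v0d2, but Atp6v1d and Atp6v1b2 moved by more than Tcirg1. Of 17 such subunits, 2 were called lower and 0 higher, 10 were lower and 1 higher at an adjusted p-value below 0.05, and the median was -0.56. Atp6v1d read 89 and 75.5 RPKM in +R and 38.5 and 29.7 RPKM in R+LE (log2 fold change -1.26 ± 0.16, adjusted p = 6.55e-05). Atp6v1b2 read 353 and 293 RPKM in +R and 161 and 121 RPKM in R+LE (log2 fold change -1.20 ± 0.18, adjusted p = 0.00031). Atp6v0d1, the d subunit found in most tissues, was at 71.5 and 61.3 RPKM in +R and 66.4 and 52.7 RPKM in R+LE and its log2 fold change was -0.16 (adjusted p = 0.632). Without R+LE replicate 1, 4 subunits were called lower.

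Of 12 genes for cell fusion, 3 were called lower and 0 higher, with a median of -0.07. These were the fusion receptors Ocstamp, at 43.4 and 38.6 RPKM in +R and 10.6 and 7.84 RPKM in R+LE (log2 fold change -2.11 ± 0.16, adjusted p = 6.41e-07), and Dcstamp, at 51.7 and 43.9 RPKM in +R and 14.6 and 11.6 RPKM in R+LE (log2 fold change -1.83 ± 0.15, adjusted p = 1.05e-06). The other was the receptor kinase Mst1r, at -1.34. Cd44 and Cd47, which macrophages carry before fusion, were among the 9 members without a call, with log2 fold changes of 0.31 and 0.21. The receptors that give RANK its costimulatory signal moved in part. Of 14 such receptors and kinases 2 were called lower, Siglec15 and the collagen receptor Oscar, which read 15.8 and 12.6 RPKM in +R and 3.12 and 2.49 RPKM in R+LE (log2 fold change -2.15 ± 0.17, adjusted p = 9.26e-07). The adaptors Tyrobp (DAP12) and Fcer1g had log2 fold changes of -0.20 and 0.29, and the kinase Syk -0.33, none of them with an adjusted p-value below 0.05, while the receptor Trem2 was higher at 0.8 (adjusted p = 0.00208).

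Among 24 transcription factors of the osteoclast lineage, 5 were called lower and 1 higher, and the median was -0.35. Nfatc1, the factor that drives the late programme, stood at 51.1 and 52.4 RPKM in +R and 20.7 and 20.6 RPKM in R+LE (log2 fold change -1.31 ± 0.13, adjusted p = 8.31e-06) and at 5.6 and 5.62 RPKM without RANKL. Prdm1 (Blimp1), which silences anti-osteoclast genes, read 12.7 and 11.9 RPKM in +R and 2.51 and 2.26 RPKM in R+LE (log2 fold change -2.16 ± 0.15, adjusted p = 3.15e-07). The AP-1 protein Jdp2 read 188 and 196 RPKM in +R and 58 and 48.7 RPKM in R+LE (log2 fold change -1.84 ± 0.16, adjusted p = 1.89e-06), and Fosl2, also of AP-1, 61.6 and 60.5 RPKM in +R and 20.1 and 19.5 RPKM in R+LE (log2 fold change -1.60 ± 0.13, adjusted p = 1.46e-06). Ppargc1b (PGC-1β), the coactivator for mitochondrial genes, read 9.29 and 11.3 RPKM in +R and 2.31 and 3.35 RPKM in R+LE (log2 fold change -1.71 ± 0.18, adjusted p = 1.29e-05). Mitf was lower without reaching 2-fold, at -0.79 (adjusted p = 0.000989). Fos read 82 and 74.3 RPKM in +R and 87.5 and 72.2 RPKM in R+LE (log2 fold change 0.03 ± 0.15), and Rela (p65) 21.3 and 18.6 RPKM in +R and 19.99 and 21.1 RPKM in R+LE (log2 fold change 0.04 ± 0.14), so in both genes the values of the conditions overlapped. Esrra, the nuclear receptor that works with PGC-1β, had -0.41 (adjusted p = 0.0626). The member called higher was Fosl1, at 1.65 and 1.48 RPKM in +R and 5.16 and 5.16 RPKM in R+LE, but 62.4% of its exon sequence lies under Ccdc85b on the opposite strand, so its reads cannot be told apart from those of Ccdc85b.

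Genes that hold back osteoclast formation rose in part. Of 12 repressors, 3 were called higher and 0 lower, 8 were higher and 1 lower at an adjusted p-value below 0.05, and the median was 0.68. The inhibitor of differentiation Id1 read 4.13 and 3.43 RPKM in +R and 12 and 7.77 RPKM in R+LE (log2 fold change 1.25 ± 0.18, adjusted p = 0.000252) and Id3 had a log2 fold change of 1.09. The other called repressor was the inhibitory receptor Lilrb4a, at 1.06, 93.3% of whose exon sequence is also that of another entry. Irf8, a macrophage factor that opposes Nfatc1, was higher short of 2-fold, at 0.61 (adjusted p = 0.0124). The member that was lower was Tnfaip3 (A20), at -0.84 (adjusted p = 0.00127). Of the 3 calls, 0 remained without R+LE replicate 1 and 1 without +R replicate 2.

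RANK itself and its signal chain were close to their +R level. Of 20 genes for RANK, the M-CSF receptor, TRAF proteins and their kinases, 0 were called at the 2-fold limit, 1 was lower and 1 higher at an adjusted p-value below 0.05, and the median was -0.05. Tnfrsf11a (RANK) read 76.4 and 74.1 RPKM in +R and 68.4 and 61.8 RPKM in R+LE with a log2 fold change of -0.21 ± 0.15, Csf1r -0.16 ± 0.17 and Traf6 -0.41 ± 0.15 (adjusted p = 0.0967). A p-value that misses the threshold does not show that these genes did not change.

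Egr1, Egr2 and Egr3, transcription factors that kinase signals switch on within minutes, were lower with LE. Of 16 early response genes and ERK feedback genes, 4 were called lower and 0 higher, and 6 were lower and 2 higher at an adjusted p-value below 0.05, with a median of -0.28. Egr2 read 4.58 and 4.21 RPKM in +R and 1.24 and 1.22 RPKM in R+LE (log2 fold change -1.50 ± 0.16, adjusted p = 1.29e-05). Egr3 read 1.02 and 1.49 RPKM in +R and 0.172 and 0.221 RPKM in R+LE (log2 fold change -1.32 ± 0.25, adjusted p = 0.00209) and Egr1 2.02 and 1.85 RPKM in +R and 0.619 and 0.589 RPKM in R+LE (log2 fold change -1.14 ± 0.18, adjusted p = 0.000546). The other called member was Spry1, at -1.14, which lost its call without +R replicate 1. At a pseudocount of 1 RPKM, which weighs low genes less, 1 of the 4 was still called. Dusp1 and Ier3 were the 2 that were higher, with log2 fold changes of 0.51 and 0.83, and Dusp6 had 0.42 (adjusted p = 0.0634). Dusp1 no longer passed the test under 6 of the 18 alternatives, and Ier3 under 2, without +R replicate 2 and with no filter on low values.

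Of 15 podosome and sealing zone genes, which form the actin ring that seals the osteoclast to bone, 2 were called lower and 0 higher, and the median was -0.19. These were cortactin (Cttn), at 5.2 and 5.62 RPKM in +R and 1.8 and 1.58 RPKM in R+LE (log2 fold change -1.43 ± 0.17, adjusted p = 4.26e-05). The other was Pstpip1, at -1.17, which lost its call without R+LE replicate 2. Actb and Rac2, an actin gene and a GTPase of the actin ring, had 0.27 (adjusted p = 0.607) and -0.50 (adjusted p = 0.0613).

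**Figure D3:**
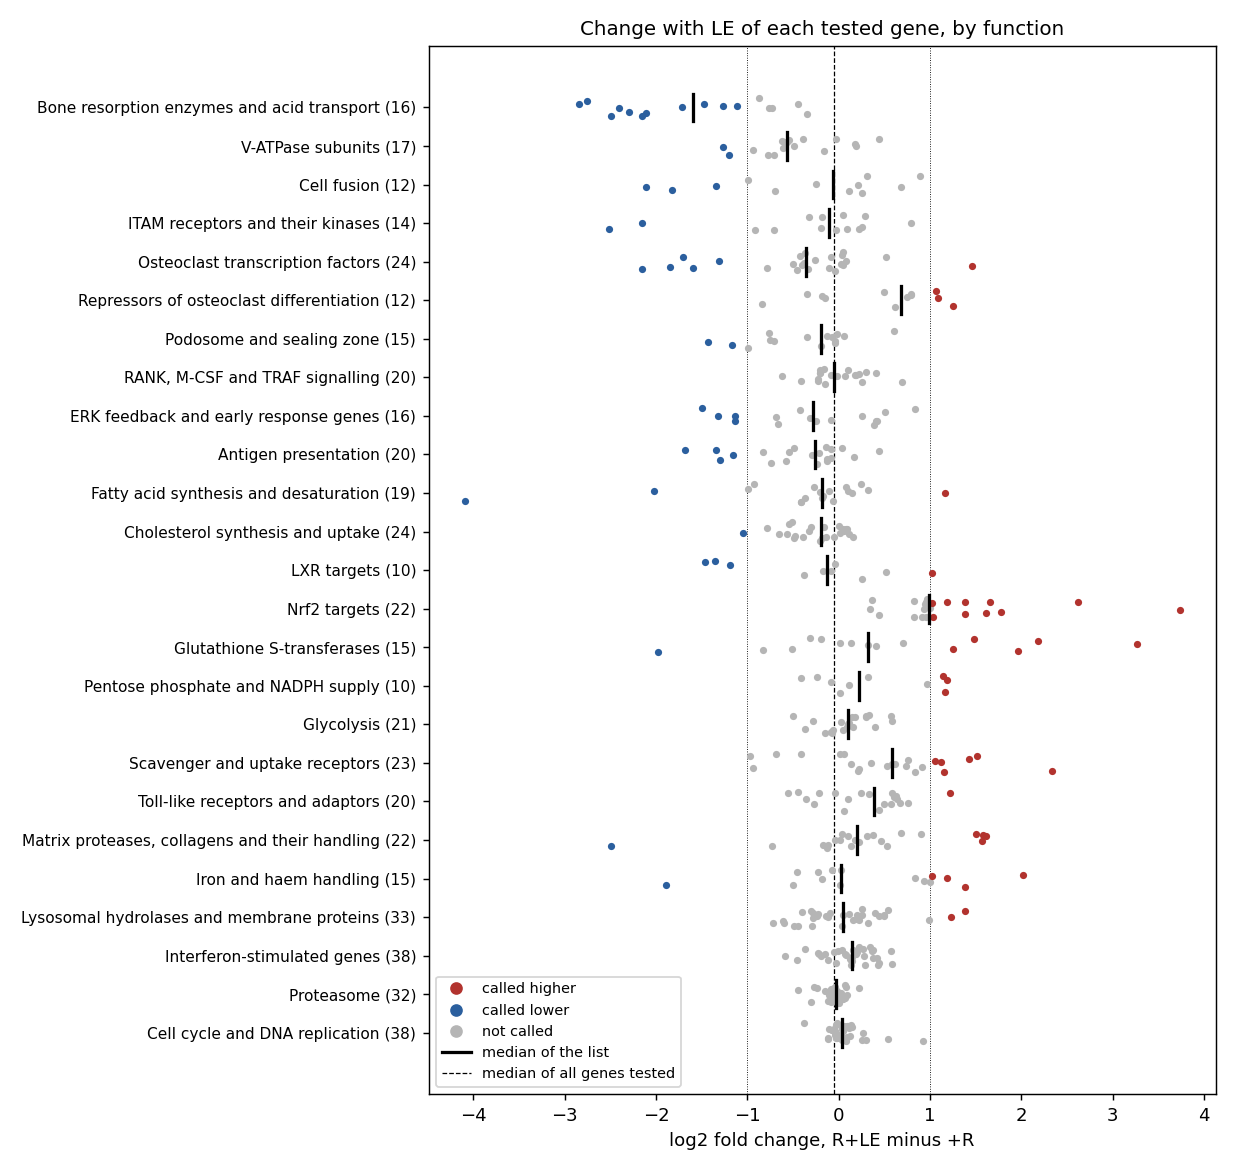
Log2 fold change of R+LE minus +R for every tested gene of 25 functions, with the number of genes in parentheses, red for called higher, blue for called lower, grey for not called, a thick bar for the median of the function and a dashed line for the median of all genes. Resorption lies furthest to the left, with all 16 genes below 0, and the Nrf2 targets lie furthest to the right, with all 22 above 0.

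A majority of the genes of the tricarboxylic acid cycle and a minority of those of the respiratory chain were lower with LE at an adjusted p-value below 0.05, each by less than 2-fold. Of 22 genes of the tricarboxylic acid cycle and pyruvate dehydrogenase, all 22 had negative log2 fold changes, 17 were lower at an adjusted p-value below 0.05, 0 reached the 2-fold limit, and the median was -0.67. Sdhb read 146 and 156 RPKM in +R and 94.6 and 71.4 RPKM in R+LE (log2 fold change -0.88 ± 0.16, adjusted p = 0.00205). Malate dehydrogenase (Mdh2) read 277 and 225 RPKM in +R and 165 and 139 RPKM in R+LE (log2 fold change -0.72 ± 0.17, adjusted p = 0.00965). All 76 respiratory chain genes also had negative values, 29 were lower at an adjusted p-value below 0.05, against 6.9% of all genes, and the median was -0.48. By complex, 8 of 37 genes were lower in complex I, 4 of 4 in complex II, 8 of 9 in complex III, 3 of 10 in complex IV and 5 of 15 in complex V. The remaining gene, cytochrome c (Cycs), was lower as well, at -0.60 (adjusted p = 0.0315), and the 4 genes of complex II are also counted in the tricarboxylic acid cycle. Cyc1, a cytochrome of complex III, read 156 and 163 RPKM in +R and 94.5 and 73.4 RPKM in R+LE (log2 fold change -0.93 ± 0.17, adjusted p = 0.00134). Of 76 proteins of the mitochondrial ribosome 73 had negative values and 8 were lower at an adjusted p-value below 0.05, with a median of -0.25. Over all genes tested, 6719 of 11509 had negative values.

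How many mitochondrial genes passed the test depended on single libraries. Without R+LE replicate 1, 67 respiratory chain genes were lower at an adjusted p-value below 0.05, without R+LE replicate 2, 13, without +R replicate 1, 7, and without +R replicate 2, 19. For the mitochondrial ribosome the counts were 22 and 5 without R+LE replicates 1 and 2, and for the tricarboxylic acid cycle 19 and 13, or 8 without +R replicate 1. The medians stayed negative in all of these, between -0.65 and -0.30 for the respiratory chain and between -0.80 and -0.55 for the tricarboxylic acid cycle. Proteins of the cytosolic ribosome, another set of short and abundant transcripts, were chosen after the values were seen for comparison. Of these 80 genes 79 also had negative values, but 0 were lower at an adjusted p-value below 0.05. Their median was -0.22, near that of the mitochondrial ribosome. Against the +R mean, their median in R+LE was -0.02 for replicate 1 and -0.41 for replicate 2, while that of complex I was -0.24 and -0.59 and that of complex II -0.66 and -0.82. Over all genes with transcripts of at least 200 nt and under 1 kb the median log2 fold change was -0.14, against -0.04 for those of 4 kb and over. Without R+LE replicate 2 these medians were 0.0054 and -0.04, and the part of transcript length in the mitochondrial values was not tested.

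**Figure D4:**
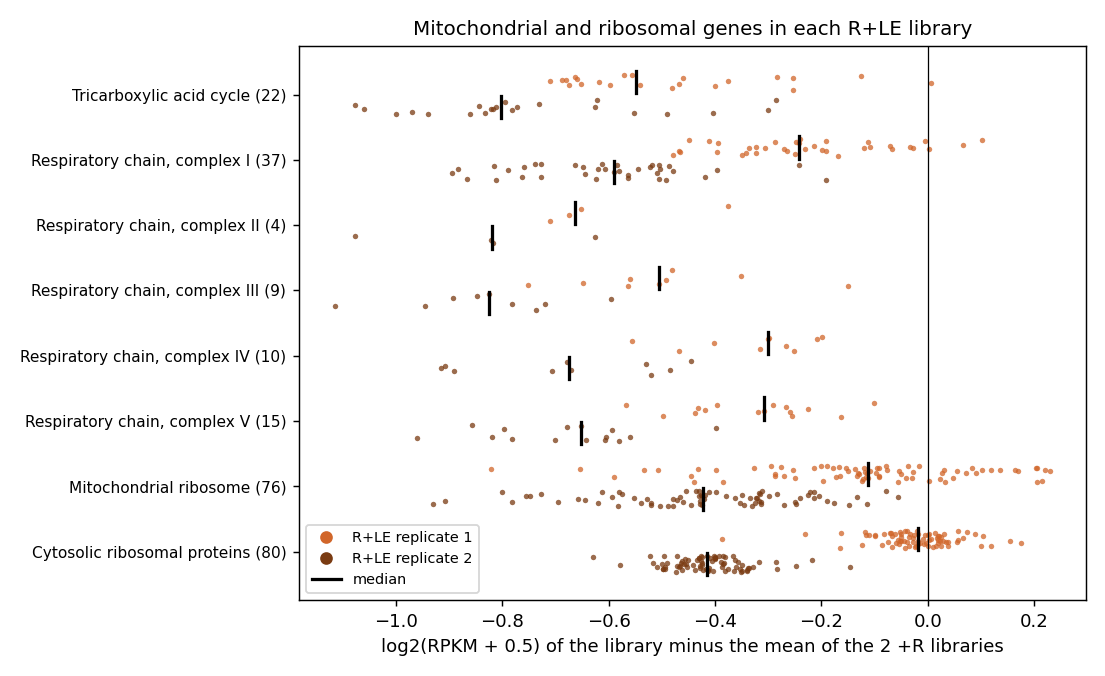
Log2(RPKM + 0.5) of each mitochondrial and cytosolic ribosomal gene in R+LE replicate 1 (light) and replicate 2 (dark) minus the mean of the 2 +R libraries, with bars at the medians and the number of genes in parentheses. Every respiratory complex and the tricarboxylic acid cycle have medians below 0 in both libraries, replicate 2 lies to the left of replicate 1 in every row, and the cytosolic ribosome is at -0.02 in replicate 1.

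Other energy genes included larger falls. Of 9 genes for creatine and adenylate handling 2 were called lower, Ckmt1 and the brain-type creatine kinase Ckb, which read 692 and 631 RPKM in +R and 247 and 203 RPKM in R+LE (log2 fold change -1.56 ± 0.18, adjusted p = 2.33e-05). Among genes chosen after their values were seen, Oxct1 and Bdh2, which handle ketone bodies, had log2 fold changes of -1.27 and -1.65, the mitochondrial protein Chchd10 -1.70 and the lactate dehydrogenase chain Ldhb -1.30. Of 21 glycolysis genes 0 were called and 1 was higher at an adjusted p-value below 0.05, with a median of 0.1. Pkm, the abundant pyruvate kinase, read 1239.9 and 1063 RPKM in +R and 1717 and 1326 RPKM in R+LE (log2 fold change 0.39 ± 0.21, adjusted p = 0.286).

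In lipid metabolism the values of both stearoyl desaturase genes fell, and whether Scd1 fell apart from Scd2 was not tested. Of 19 genes for fatty acid synthesis and desaturation 2 were called lower and 1 higher, with a median of -0.18. Scd1, the second desaturase, read 2.51 and 2.74 RPKM in +R and 0.243 and 0.292 RPKM in R+LE (log2 fold change -2.02 ± 0.20, adjusted p = 6.05e-06), and since Scd1 and Scd2 are similar in sequence, reads of the more abundant Scd2 may be counted in it. With a pseudocount of 0.1 RPKM, or without +R replicate 1 or R+LE replicate 1, 4 genes of the list were called lower. Fasn and Acaca, which make palmitate, had log2 fold changes of -0.27 and -0.42, and their regulator Srebf1 -0.41, none with an adjusted p-value below 0.05. The member called higher, Me1, supplies NADPH and is described below. Of 24 genes for cholesterol synthesis and uptake 1 was called lower, Insig1, at -1.05, which lost its call without +R replicate 1 or R+LE replicate 2, and 6 were lower at an adjusted p-value below 0.05, with a median of -0.19. Of 10 targets of the oxysterol receptor LXR 3 were called lower, 2 of them the cholesterol exporters Abcg1, at 8.88 and 9.08 RPKM in +R and 2.74 and 3.16 RPKM in R+LE (log2 fold change -1.46 ± 0.14, adjusted p = 6.27e-06), and Abca1, at 8.02 and 10.7 RPKM in +R and 4.04 and 3.54 RPKM in R+LE (log2 fold change -1.19 ± 0.17, adjusted p = 0.000255). The phospholipid transfer protein Pltp stood at 231 and 257 RPKM in +R and 94.1 and 96.4 RPKM in R+LE (log2 fold change -1.35 ± 0.15, adjusted p = 2.57e-05). The member called higher was Smpdl3a, at 1.02, and Apoe had 0.52. The median of the 10 was -0.13. Abca1 lost its call without +R replicate 2, and Smpdl3a without that library or R+LE replicate 1.

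H2-Aa, H2-Ab1, H2-Eb1 and Cd74, which serve the display of antigen on class II molecules, were lower with LE. Of 20 antigen presentation genes 4 were called lower and 0 higher, with a median of -0.27, and all 4 belong to the class II pathway. H2-Aa read 4.05 and 4.69 RPKM in +R and 1.22 and 0.835 RPKM in R+LE (log2 fold change -1.68 ± 0.16, adjusted p = 4.25e-06). The invariant chain Cd74 read 30.2 and 31 RPKM in +R and 13.5 and 10.2 RPKM in R+LE (log2 fold change -1.35 ± 0.15, adjusted p = 2.41e-05), and H2-Ab1 and H2-Eb1 had log2 fold changes of -1.30 and -1.16. H2-Eb1 lost its call without R+LE replicate 2, H2-Ab1 with no filter on low values, and both at a pseudocount of 1 RPKM. These genes were at 91.4 and 90.2 RPKM for Cd74 and 16.1 and 16.1 RPKM for H2-Aa without RANKL, so R+LE was the lowest of the 3 conditions. The class I genes H2-K1 and H2-D1 had log2 fold changes of -0.14 ± 0.14 and -0.13 ± 0.17. The 8 dendritic cell markers summed to at most 1.67 RPKM in the 4 libraries, with 1.15 and 1.67 RPKM in +R and 0.515 and 0.606 RPKM in R+LE, and their part in the class II values was not tested.

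Among 9 chemokine receptors 2 were called lower. Ccr1, a receptor through which osteoclast precursors respond to CCL3 and CCL9, read 36.1 and 26 RPKM in +R and 10.7 and 8.25 RPKM in R+LE (log2 fold change -1.66 ± 0.17, adjusted p = 9.32e-06), below the 23.7 and 23.6 RPKM of -R, and Ccr3 had a log2 fold change of -1.33. Of 13 chemokines 2 were called higher, Cxcl14, at 1.15, and Pf4, at 1.03. Both lost the call without R+LE replicate 1, and Pf4 also without +R replicate 1. Of 14 genes of the BCL2 family 3 were called lower, but Bcl2a1a, Bcl2a1b and Bcl2a1d are near-identical copies that share reads and count as 1 observation, of which 1 copy was still called without +R replicate 1 or without R+LE replicate 2. With no filter on low values 0 of the 3 copies were called.

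The functions that rose were led by the response to oxidants and electrophiles. Of 22 Nrf2 targets 10 were called higher and 0 lower, against 1.49% of all genes, 19 were higher at an adjusted p-value below 0.05, all 22 had positive log2 fold changes, and the median was 0.98. Summed over the 22, with much of it from Ftl1, the level was 6283 and 5569 RPKM in +R and 13093 and 10670 RPKM in R+LE. In -R it was higher still, at 25773 and 25963 RPKM. Of the called genes of this list and the glutathione S-transferase and NADPH lists, only Nqo1, Mgst2, Gsta3 and Gstm2 lay above -R in both R+LE libraries. Beside Nqo1 and Gclm, the catalytic subunit Gclc read 11.7 and 10.4 RPKM in +R and 25.3 and 21.1 RPKM in R+LE (log2 fold change 1.04 ± 0.16, adjusted p = 0.000447). Catalase (Cat), which splits hydrogen peroxide, read 26.9 and 22.4 RPKM in +R and 95 and 76.5 RPKM in R+LE (log2 fold change 1.77 ± 0.16, adjusted p = 2.41e-06). Sulfiredoxin (Srxn1), which repairs peroxiredoxins, read 24.6 and 21.2 RPKM in +R and 80.4 and 62.1 RPKM in R+LE (log2 fold change 1.61 ± 0.16, adjusted p = 6.45e-06). Peroxiredoxin 1 (Prdx1) itself read 243 and 174 RPKM in +R and 607 and 477 RPKM in R+LE (log2 fold change 1.39 ± 0.20, adjusted p = 0.000262) and Osgin1 1.37 and 1.38 RPKM in +R and 5.92 and 4.91 RPKM in R+LE (log2 fold change 1.65 ± 0.15, adjusted p = 3.08e-06). Haem oxygenase 1 (Hmox1), which breaks haem down, rose from 34 and 25.1 RPKM in +R to 76.5 and 58.4 RPKM in R+LE (log2 fold change 1.18 ± 0.18, adjusted p = 0.000377), far short of its 549 and 542 RPKM without RANKL. Txnrd1 and Gsr, the reductases of thioredoxin and glutathione, were just short of 2-fold at 0.95 and 0.94, and the cystine carrier Slc7a11 was low, at 0.605 and 0.491 RPKM in +R and 0.873 and 0.781 RPKM in R+LE, with an adjusted p-value of 0.421. Pir, another gene known as an Nrf2 target and chosen after its values were seen, had 1.77. Gclc, Hmox1 and Ftl1, the last described with the iron genes, were no longer called without +R replicate 2 or without R+LE replicate 1, which left 7 called targets. Without R+LE replicate 2, the library with the lowest share of reads on genes, 18 of the 22 targets were called higher.

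Glutathione S-transferases, which couple glutathione to reactive compounds, moved in both directions. Of 15 tested, 5 were called higher and 1 lower, with a median of 0.33. The median was 0.18 without +R replicate 2, 0.157 without R+LE replicate 1 and 0.494 without R+LE replicate 2. The microsomal enzyme Mgst1 read 2.38 and 2.95 RPKM in +R and 14.2 and 9.67 RPKM in R+LE (log2 fold change 1.96 ± 0.17, adjusted p = 2.14e-06), and the mu-class genes Gstm1 and Gstm2 had log2 fold changes of 1.48 and 1.25, with Gstm paralogs close enough in sequence that reads may be shared between them. The theta-class gene Gstt1 was the member called lower, at 14 and 12.5 RPKM in +R and 3.2 and 2.77 RPKM in R+LE (log2 fold change -1.98 ± 0.17, adjusted p = 2.14e-06), and Gstt2 was lower without a call, at -0.83 (adjusted p = 0.00737).

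The enzymes that supply NADPH for these reactions rose at the entry of the pentose phosphate pathway. Of 10 genes 3 were called higher and 0 lower, with a median of 0.22, which was 0.142 without +R replicate 2, 0.0992 without R+LE replicate 1 and 0.336 without R+LE replicate 2. G6pdx, the first enzyme, read 68.8 and 61.9 RPKM in +R and 163 and 129 RPKM in R+LE (log2 fold change 1.15 ± 0.16, adjusted p = 0.000208). Pgd, the next enzyme that makes NADPH, read 196 and 165 RPKM in +R and 472 and 355 RPKM in R+LE (log2 fold change 1.18 ± 0.19, adjusted p = 0.000539), and malic enzyme (Me1) 4.85 and 4.39 RPKM in +R and 11.7 and 10.3 RPKM in R+LE (log2 fold change 1.17 ± 0.14, adjusted p = 3.48e-05). Taldo1, of the non-oxidative branch, was just under the limit at 0.96. G6pdx and Pgd lost the call without R+LE replicate 1, which left 1 of the 3.

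**Figure D5:**
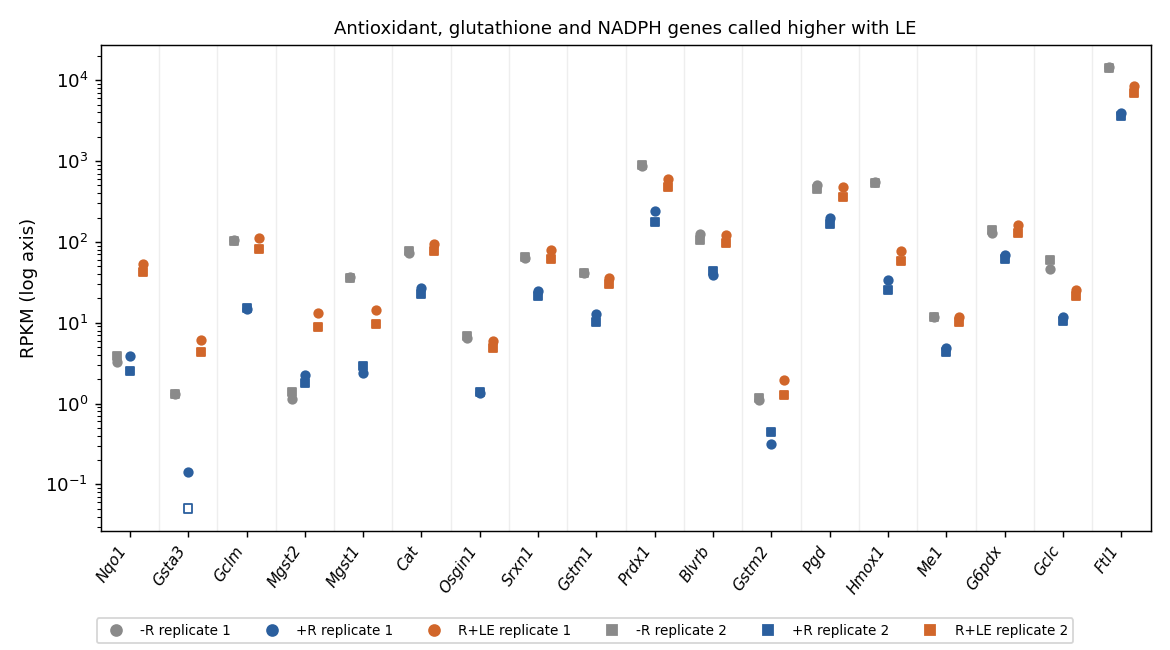
RPKM on a log axis in each of the 6 libraries for the 18 genes of the Nrf2, glutathione S-transferase and NADPH lists that were called higher, ordered by log2 fold change, with circles for replicate 1, squares for replicate 2, and an open symbol drawn at 0.05 for a lower value. The orange R+LE symbols lie above the blue +R symbols in all 18 genes, which the choice of genes called higher nearly ensures. R+LE replicate 1 lies above replicate 2 in each gene. For Nqo1, Mgst2, Gsta3 and Gstm2 both R+LE symbols also lie above the grey -R symbols.

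Promoters of this group are shown because Nrf2 binds a short sequence, the antioxidant response element, whose core TGACNNNGC can be searched for. Of the 11509 genes tested, 9039 matched a RefSeq promoter window of the GRCm38.p6 build, which holds the 250 bases before and the 50 bases after a gene's start. The core, on either strand, was found in 12.4% of the 32851 windows of the table, in 17.1% of the genes tested that had a window, in 20.6% of 131 genes called higher and in 17.9% of 145 genes called lower. Of the 18 genes in the plot of antioxidant, glutathione and NADPH genes, all of them selected for being called higher, 16 had a window and 8 held the core. Over the whole list of Nrf2 targets, called or not, 5 of 17 with a window held it (29.4%). The 8 were Gclm, Gsta3, Mgst1, Prdx1, Srxn1, G6pdx, Pgd and Me1. Nqo1 had a window without these letters, which says nothing about sites elsewhere. In the windows of Me1 and Prdx1 the match overlaps an AP-1 site, TGANTCA. The windows of 3 of the genes follow, 5′ to 3′ on the gene's strand, with the core, or its reverse complement GCNNNGTCA, in capitals. They lie at chr3:122245307-122245606 on the plus strand, chr4:116685349-116685648 on the plus strand and chrX:74428831-74429130 on the minus strand, and the core begins 134, 133 and 57 bases before the start of the gene.
Gclm: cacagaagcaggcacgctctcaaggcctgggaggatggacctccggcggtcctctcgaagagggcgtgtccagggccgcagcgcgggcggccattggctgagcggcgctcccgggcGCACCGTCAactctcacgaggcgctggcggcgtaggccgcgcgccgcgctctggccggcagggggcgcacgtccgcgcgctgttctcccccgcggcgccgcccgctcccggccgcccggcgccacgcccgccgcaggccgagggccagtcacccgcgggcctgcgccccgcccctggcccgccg
Prdx1: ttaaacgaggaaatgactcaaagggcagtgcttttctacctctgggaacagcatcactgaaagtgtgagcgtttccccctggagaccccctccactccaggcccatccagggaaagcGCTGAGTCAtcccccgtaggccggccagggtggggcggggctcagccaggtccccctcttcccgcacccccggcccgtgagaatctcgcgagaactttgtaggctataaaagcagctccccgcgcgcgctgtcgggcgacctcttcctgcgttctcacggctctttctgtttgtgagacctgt
G6pdx: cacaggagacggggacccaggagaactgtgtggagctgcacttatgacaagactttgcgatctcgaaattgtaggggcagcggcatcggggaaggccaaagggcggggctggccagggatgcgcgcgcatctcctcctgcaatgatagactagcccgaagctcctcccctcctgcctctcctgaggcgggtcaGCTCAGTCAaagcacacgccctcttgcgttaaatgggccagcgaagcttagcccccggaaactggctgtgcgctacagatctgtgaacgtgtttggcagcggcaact

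The AP-1 site TGANTCA was in 6.23% of the tested genes with a window, in 14.5% of those called higher and in 15.9% of those called lower. The xenobiotic response element core GCGTG, on either strand, was in 56.6%, 42% and 55.2% of the same sets, and the E-box CACGTG in 12.2%, 7.63% and 11%. Of the 16 antioxidant, glutathione and NADPH genes with a window, all selected for being called higher, 5 held the AP-1 letters (31.25%). These shares are a description of letters in windows, not of binding, and they were not tested. Prdm1 and Coq8a, both among the lower genes, hold the AP-1 letters and are shown as examples only, since the letters were also found among genes called higher. Their windows lie at chr10:44458699-44458998 on the minus strand and chr1:180193436-180193735 on the minus strand, the latter 1 of 2 windows of its gene, with the site, in capitals, beginning 48 and 13 bases before the start.
Prdm1: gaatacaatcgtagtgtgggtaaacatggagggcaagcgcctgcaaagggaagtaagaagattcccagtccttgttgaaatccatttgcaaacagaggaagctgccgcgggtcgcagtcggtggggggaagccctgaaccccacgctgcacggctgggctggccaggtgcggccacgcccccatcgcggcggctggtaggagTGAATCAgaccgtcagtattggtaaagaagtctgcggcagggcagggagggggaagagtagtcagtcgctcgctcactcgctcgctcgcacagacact
Coq8a: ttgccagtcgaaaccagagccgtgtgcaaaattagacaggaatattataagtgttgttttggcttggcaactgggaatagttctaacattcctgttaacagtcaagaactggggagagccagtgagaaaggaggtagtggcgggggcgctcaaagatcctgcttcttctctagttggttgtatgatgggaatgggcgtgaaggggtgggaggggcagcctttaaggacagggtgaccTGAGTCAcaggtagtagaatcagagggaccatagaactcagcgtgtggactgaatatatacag

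Other routes of detoxification rose in part. The Ugt1a genes, which attach glucuronic acid, were called higher in 8 of 8 entries, but these entries share their last exons and count as 1 locus, with Ugt1a6a at 29.4 and 24.1 RPKM in +R and 65.5 and 50.8 RPKM in R+LE (log2 fold change 1.1 ± 0.16, adjusted p = 0.000261), a call that was lost without +R replicate 2 or R+LE replicate 1. Abcc3, an exporter of such conjugates chosen after its values were seen, read 4.63 and 5.28 RPKM in +R and 15.6 and 13.3 RPKM in R+LE (log2 fold change 1.45 ± 0.14, adjusted p = 6.05e-06). Of 6 targets of the aryl hydrocarbon receptor 2 were called higher, Nqo1 and Ugt1a7c, which also belong to the groups above, with a median of 0.22. Ugt1a7c lost its call under the same conditions as Ugt1a6a.

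Receptors by which macrophages take up particles and lipids rose in part. Of 23 scavenger and uptake receptors 6 were called higher and 0 lower, 13 were higher and 3 lower at an adjusted p-value below 0.05, and the median was 0.59. Beside Cd36, the C-type lectin Clec4d (MCL) read 59.6 and 56.7 RPKM in +R and 187 and 150.0 RPKM in R+LE (log2 fold change 1.52 ± 0.16, adjusted p = 1.25e-05). Its partner Clec4e (Mincle) read 8.54 and 5.59 RPKM in +R and 21.9 and 17.3 RPKM in R+LE (log2 fold change 1.43 ± 0.18, adjusted p = 6.36e-05). The complement receptors C5ar1 and C3ar1 had log2 fold changes of 1.16 and 1.12, and the Fc receptor Fcgr3 1.05. Those 3 calls were lost without 1 of the libraries, +R replicate 2 for C5ar1, R+LE replicate 1 for C3ar1, and +R replicate 1 or R+LE replicate 1 for Fcgr3. The lectins Mrc1 and Clec7a (Dectin-1) were 2 of the 3 that were lower, at -0.97 and -0.94. Of 20 Toll-like receptors and adaptors 1 was called higher, Tlr13, at 14.2 and 11.3 RPKM in +R and 34.5 and 26.3 RPKM in R+LE (log2 fold change 1.21 ± 0.16, adjusted p = 0.000135), 8 were higher and 1 lower at an adjusted p-value below 0.05, and the median was 0.39. Macrophage markers as a list had 0 of 8 called, 2 higher at an adjusted p-value below 0.05, and a median of 0.37. Of the 8 markers, 6 had positive and 2 had negative log2 fold changes. Their summed level, given above and mostly from Lyz2, was higher in R+LE without overlap between the conditions. In 19.3% of all genes tested R+LE also lay above +R without overlap. The part of the marker level in the rise of these receptors was not tested.

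Matrix genes moved in both directions. Of 22 proteases, collagens and collagen-handling genes 4 were called higher and 1 lower, with a median of 0.2. The lower one was Mmp14. Mmp12, the macrophage elastase, read 3.82 and 2.37 RPKM in +R and 11.5 and 8.61 RPKM in R+LE (log2 fold change 1.57 ± 0.19, adjusted p = 3.75e-05). Mmp8, a collagenase, read 0.454 and 0.24 RPKM in +R and 2.4 and 1.78 RPKM in R+LE (log2 fold change 1.61 ± 0.23, adjusted p = 0.000207). Mmp8 is also a neutrophil gene, and the 10 neutrophil markers summed to 1.43 and 1.71 RPKM in +R and 3.27 and 1.44 RPKM in R+LE, with a part in Mmp8 that was not tested. Both chains of basement membrane collagen IV rose, Col4a1 from 7.12 and 6.01 RPKM in +R to 17.3 and 21.9 RPKM in R+LE (log2 fold change 1.5 ± 0.15, adjusted p = 1e-05) and Col4a2 from 9.51 and 7.81 RPKM in +R to 24.2 and 29.7 RPKM in R+LE (log2 fold change 1.58 ± 0.17, adjusted p = 1.42e-05). In -R Col4a1 stood at 0.7 and 0.687 RPKM and Col4a2 at 1.14 and 0.731 RPKM. These 2 genes lie head to head and share only 22 bp of exon. The stromal and osteoblast markers summed to 12 and 16.1 RPKM in +R and 9.58 and 10.9 RPKM in R+LE. The endothelial markers summed to 2.69 and 2.44 RPKM in +R and 1.41 and 1.28 RPKM in R+LE. Only 4 of 13 and 2 of 7 of these markers reached the 0.5 RPKM limit, and the part of such cells in the collagen IV values was not tested.

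Genes of iron and haem handling moved in both directions. Of 15 genes for iron and haem 4 were called higher and 1 lower, with a median of 0.02. Of the 4, Hmox1, Ftl1 and Blvrb are also counted among the called Nrf2 targets. The median ran from 0.0096 without +R replicate 2 to 0.187 without R+LE replicate 2. Slc11a1 (NRAMP1), which pumps iron out of the phagosome, read 29.1 and 31.4 RPKM in +R and 141 and 109 RPKM in R+LE (log2 fold change 2.02 ± 0.16, adjusted p = 8.85e-07). The biliverdin reductase Blvrb read 38.8 and 43 RPKM in +R and 120.4 and 96.1 RPKM in R+LE (log2 fold change 1.39 ± 0.16, adjusted p = 3.48e-05). The ferritin chains were among the most abundant genes of the table. Ftl1 read 3957 and 3599 RPKM in +R and 8452 and 6904 RPKM in R+LE (log2 fold change 1.02 ± 0.26, adjusted p = 0.0173) and Fth1 1215 and 1039 RPKM in +R and 2356 and 1945 RPKM in R+LE (log2 fold change 0.93 ± 0.23, adjusted p = 0.0129). The call of Ftl1 was lost under 8 of the 18 alternatives, and 36.7% of its exon sequence lies under an entry of the opposite strand. The lower member was the reductase Steap4, at 2.28 and 1.94 RPKM in +R and 0.212 and 0.189 RPKM in R+LE (log2 fold change -1.90 ± 0.23, adjusted p = 5.31e-05). Ncoa4, the receptor that delivers ferritin for breakdown and was chosen after its values were seen, was lower too, at -1.15, a call lost without R+LE replicate 2. Of the 4 called higher, 2 were called without +R replicate 2 or without R+LE replicate 1, and without R+LE replicate 2, 7 genes of the list were. Transferrin receptor (Tfrc) had -0.19 ± 0.16.

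Of 33 lysosomal hydrolases and membrane proteins 2 were called higher and 0 lower, 4 were higher and 4 lower at an adjusted p-value below 0.05, and the median was 0.04. The share called was 6.06%, against 3.28% of all genes. At an adjusted p-value below 0.05, 5.21% of all genes were higher and 6.9% lower. The cathepsin Ctsl read 126 and 101 RPKM in +R and 351 and 249 RPKM in R+LE (log2 fold change 1.39 ± 0.20, adjusted p = 0.000214) and the acid lipase Lipa 123 and 101 RPKM in +R and 299.7 and 230.0 RPKM in R+LE (log2 fold change 1.23 ± 0.18, adjusted p = 0.000335). The hexosaminidase chain Hexa was lower without a call, at -0.61. Ctsl shares 28.2% of its exon sequence with an antisense entry.

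Several functions had few called members or 0, but few members of a short list can exceed the 3.28% of all genes called. The share called was 33.3% for clade B serpins, 23.1% for integrins, 10.5% for ATF4 and amino acid stress genes and 10% for calcium genes. Of 38 genes for the cell cycle and DNA replication 0 were called, with a median of 0.04, and the 2 that were higher at an adjusted p-value below 0.05 were cyclins D1 (Ccnd1), at 0.92, and E1 (Ccne1), at 0.54. Of 38 interferon-stimulated genes 0 were called, 2 were higher and 1 lower at an adjusted p-value below 0.05, and the median was 0.15. Proteasome subunits, another group under stress control, had 0 of 32 called and 0 at an adjusted p-value below 0.05, with a median of -0.03 and no member beyond -0.45 or 0.22. Of 19 heat shock chaperones 0 were called, with a median of -0.13. Of 19 ATF4 targets and amino acid stress genes 1 was called higher, Atf3, at 1.11, and 1 lower, Chac1, at 2.91 and 3.52 RPKM in +R and 0.546 and 0.588 RPKM in R+LE (log2 fold change -1.80 ± 0.20, adjusted p = 2.31e-05). Atf3 lost its call without +R replicate 2 or R+LE replicate 1. Autophagy genes (24), cytokines (10), zinc carriers and metallothioneins (12) and monocyte identity genes (10) had 0 called members each. The 13 integrins had 1 called higher, Itgal, at 1.06, a call lost without +R replicate 2 or R+LE replicate 1, and 2 lower, Itgb3 and Itga2, at -1.47 and -1.46. The 20 calcium genes had 1 called higher, Trpv4, and 1 lower, the NFAT target Rcan1, at -1.02. Both lost the call without R+LE replicate 2, Trpv4 also without +R replicate 2 and Rcan1 also without +R replicate 1. The 6 clade B serpins had 2 called higher, Serpinb9b and Serpinb9, at 1.75.

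At the lower limit of the selection, Gapdhs was just inside with a mean of 0.5 RPKM and Rwdd3 just outside with 0.4995 RPKM.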

How the data were processed

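Total RNA of cultured bone marrow-derived macrophages was sequenced in 6 libraries, 2 each of -R, +R and R+LE. The authors deposited RPKM values per gene, made with HOMER over exons of both strands with 1 transcript per gene, and did not pool replicates. The column titles call the values FPKM. The methods of the study name TopHat as the aligner, whereas the submitters' processing notes list HISAT2, HOMER, DESeq2 and the mm10 build, with versions not given in the sources used here. Each value times transcript length was a whole multiple of 1 read within 0.15 reads in 100% of the low values checked (up to 100 reads), which gave depths of 29390194 to 34846362 mapped reads. On a 1 kb transcript, 3 reads equal 0.0861 to 0.102 RPKM, and this floor covers counting error only.

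Genes whose mean over the 4 +R and R+LE libraries reached 0.5 RPKM were fitted with limma 3.58.1 in R 4.3.3 on log2(RPKM + 0.5), with group means of all 6 libraries and a variance trend, and p-values were adjusted by the Benjamini-Hochberg method over all genes tested. A fold change on this scale understates that of low genes. Calls needed an adjusted p-value under 0.05 together with a change of 2-fold or more. The script was tested on simulated data. Gene symbols that had been turned into dates, 26 in number, were restored by their transcript.

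Members and lists were chosen with earlier results of these data known, so lists are described by counts and medians, with no test of a list. Named are the 12 largest falls and rises among called genes on transcripts of at least 200 nt, up to 4 called members of each list, its most abundant or defining members, and the genes the study discusses. The largest falls and rises were also required to have both R+LE values on the same side of both +R values. Other genes are said to be chosen after their values were seen. Some genes that this rule names are not reported here. Motifs were searched on both strands of RefSeq promoter windows. Depth without the 45S entry and a fit without transcripts under 200 nt were alternatives chosen after seeing the data. Figures were drawn with Python 3.11.15 and matplotlib 3.10.9.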

Additional observations from a re-analysis of the deposited data

How the results depend on the processing

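Over 18 alternatives the number of genes called higher ran from 131 (no filter on low values) to 252 (limma-voom on the recovered reads) and that of genes called lower from 146 (pseudocount of 1 RPKM) to 267 (limma-voom). Leaving out single libraries gave 164 to 222 higher and 204 to 255 lower. The replicate number as a block gave 174 higher and 217 lower. The labels do not say what the replicate number marks, so it was not taken to pair the libraries. Same-numbered libraries deviated together with r = -0.04 for -R and +R, 0.11 for -R and R+LE and 0.23 for +R and R+LE. Of the 125 called genes named here, 86 were called under all 18 alternatives. Median centring moved the median of all genes from -0.05 to 0.0026. With 2 libraries a condition, 1 library decides many values near the threshold.

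Some list medians moved by more than an SE estimated for them from the replicate differences in +R and R+LE. This SE can be smaller than the distance between replicates. For early response genes the median was -0.34 and -0.24 with pseudocounts of 0.1 and 1 RPKM, -0.17 with a minimum mean of 1 RPKM, -0.23 with median centring and -0.35 with limma-voom. For osteoclast transcription factors it was -0.30 with median centring and -0.28 with quantile normalization, and for podosome genes -0.14 and -0.13. It was 0.21 for interferon-stimulated genes with quantile normalization and 0.46 for Toll-like receptors with limma-voom. The cause was not tested.

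With single libraries left out, medians ran from -0.37 to -0.18 for early response genes, -0.35 to -0.30 for transcription factors, -0.26 to -0.19 for podosome genes, -0.36 to -0.24 for antigen presentation, -0.27 to -0.13 for fatty acid genes and -0.42 to -0.11 for the mitochondrial ribosome. They ran from 0.52 to 0.75 for repressors, 0.84 to 1.16 for Nrf2 targets, 0.30 to 0.48 for Toll-like receptors and 0.13 to 0.30 for matrix genes. They crossed 0 for glycolysis (-0.038 to 0.30), costimulatory receptors (-0.25 to 0.047), the proteasome (-0.20 to 0.12), RANK signalling (-0.16 to 0.055), lysosomal genes (-0.015 to 0.19), heat shock chaperones (-0.18 to 0.0049) and the cell cycle (-0.059 to 0.14). So did the log2 fold changes of 4 genes without a call, Atp6v0d1 (-0.33 to 0.0041), Csf1r (-0.34 to 0.015), Fos (-0.11 to 0.16) and Rela (-0.054 to 0.14).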

Other observations

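Genes for eicosanoids and related lipid mediators stood among the called genes without belonging to a list, and those named in this paragraph were chosen after their values were seen. Pla2g7, the lipase that degrades platelet-activating factor, read 24.5 and 18.7 RPKM in +R and 93.7 and 78.8 RPKM in R+LE (log2 fold change 1.98 ± 0.16, adjusted p = 9.2e-07), above the 32.6 and 33.7 RPKM of cells without RANKL. Ptgs1 (COX-1), which makes prostaglandin precursors, read 11.1 and 8.56 RPKM in +R and 28.6 and 22.1 RPKM in R+LE (log2 fold change 1.32 ± 0.16, adjusted p = 6.22e-05), and the prostacyclin receptor gene Ptgir 0.646 and 0.782 RPKM in +R and 3.4 and 3.65 RPKM in R+LE (log2 fold change 1.73 ± 0.16, adjusted p = 3.71e-06). The leukotriene pathway gene Alox5ap had a log2 fold change of 1.11, Ptgr1, which degrades prostaglandins and leukotrienes, 1.33, and the lipid-sensing receptor Pparg 1.06. The calls of Alox5ap and Pparg were lost without +R replicate 2 or without R+LE replicate 1.

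Sphk1 and Spns2, 2 genes that handle the lipid mediator sphingosine 1-phosphate, were also called lower. Sphk1, the kinase that makes it, read 2.39 and 1.99 RPKM in +R and 0.596 and 0.393 RPKM in R+LE (log2 fold change -1.44 ± 0.23, adjusted p = 0.000512) and its exporter Spns2 13.4 and 12 RPKM in +R and 3.62 and 2.67 RPKM in R+LE (log2 fold change -1.87 ± 0.17, adjusted p = 3.58e-06), and both were at or below 0.0710 RPKM without RANKL. Hbegf, a growth factor, and its receptor Egfr fell as well. Hbegf was at 3.22 and 2.59 RPKM in +R and 0.95 and 0.957 RPKM in R+LE (log2 fold change -1.22 ± 0.20, adjusted p = 0.000667). Egfr was at 2.66 and 2.25 RPKM in +R and 0.726 and 0.988 RPKM in R+LE (log2 fold change -1.13 ± 0.22, adjusted p = 0.00278). With a pseudocount of 1 RPKM both lost the call, at -0.99 for Hbegf and -0.90 for Egfr. Without R+LE replicate 1 Egfr was also short of the call, at -0.99. The genes named in this paragraph were likewise chosen after their values were seen. Il4i1, an amino acid oxidase, had a log2 fold change of -1.92, but 87.4% of its exon sequence lies under Tbc1d17 on the opposite strand, whose reads cannot be told apart from its own.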
